A study of Mus musculus with 57 samples.

Results

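The collagen genes are the 44 genes, of 52853 with counts, whose symbol consists of Col, a chain type number, the letter a and a chain number, so that no measured value chose them. By the matrix structure their chains build, 11 are fibrillar, 6 form basement membranes (the type IV chains), 6 form beaded filaments (type VI), 9 are FACITs (collagens that attach to fibrils and have interrupted helices), 2 are multiplexins, 4 are transmembrane, 3 are short chain collagens, Col7a1 alone builds anchoring fibrils, and 2, Col26a1 and Col28a1, were left unclassed.

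Collagens are trimers, most of them secreted, whose chains wind around each other, with glycine at every turn of the repeat. Fibrillar chains (types I, III and V) make the load-bearing fibres of the stroma and come mainly from fibroblasts and adipocyte progenitors, whereas the type IV chains form the sheet that wraps each adipocyte and each blood vessel, and type VI filaments link both kinds of matrix. In adipose tissue this scaffold is laid down and remodelled as the depot grows, and fibrosis of fat is read mainly from the type I, III and VI chains.

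RNA was sequenced from 41 samples, each of 1 tissue of 1 male mouse on a C57BL/6J background. Mice were wild-type (WT) or homozygous for the Mfn2-R707W knock-in (KI), which puts tryptophan in place of arginine in Mfn2, a fusion protein of the outer mitochondrial membrane. From 5 weeks of age they ate chow or a high-fat diet (HFD, 45% of calories from fat) for 6 months. Brown adipose tissue (BAT) was taken from 6 WT and 6 KI mice on HFD, inguinal white adipose tissue (WAT) from 8 WT and 8 KI mice on HFD, and inguinal WAT from 7 WT and 6 KI mice on chow. The KI line descends from 1 founder, also carries a silent change that adds a restriction site, and bears the mutation in every tissue, so that an effect in fat cannot be told apart from an effect of another organ on fat. The labels do not tie the BAT samples to the inguinal ones, so tissues were treated as unpaired.

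The promoter sequences of 4 members are shown, since the results turn on these genes. Windows run from 250 bases before to 50 after the RefSeq start (build GRCm38.p6), 5′ to 3′ on the strand of the gene. Col4a1 (chr8:11312777-11313076, minus strand) and Col4a2 (chr8:11312555-11312854, plus strand) are the most abundant collagen mRNAs and start back to back. Their gene models overlap by 22 bases, and reads on those bases cannot be assigned to either gene where counting ignores strand. The 78 bases that both windows hold, each the reverse complement of the other, are in capitals.
Col4a1: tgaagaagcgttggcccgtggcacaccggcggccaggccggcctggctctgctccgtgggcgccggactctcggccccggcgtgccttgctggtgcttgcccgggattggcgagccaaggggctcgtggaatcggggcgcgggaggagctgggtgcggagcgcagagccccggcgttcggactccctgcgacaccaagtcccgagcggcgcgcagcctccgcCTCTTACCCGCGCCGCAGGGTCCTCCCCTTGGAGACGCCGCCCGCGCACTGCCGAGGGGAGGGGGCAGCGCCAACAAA
Col4a2: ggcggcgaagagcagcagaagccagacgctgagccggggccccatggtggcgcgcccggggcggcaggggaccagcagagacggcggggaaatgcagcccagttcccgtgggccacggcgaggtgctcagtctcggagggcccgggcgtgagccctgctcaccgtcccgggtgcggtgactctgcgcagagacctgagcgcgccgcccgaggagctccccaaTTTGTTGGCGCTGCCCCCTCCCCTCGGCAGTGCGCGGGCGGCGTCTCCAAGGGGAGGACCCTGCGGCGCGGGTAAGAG
Col16a1 (chr4:130047590-130047889, plus strand) is the collagen called lower in KI mice in both tissues, and Col27a1 (chr4:63215162-63215461, plus strand; this start lies inside the counted gene model, which begins at 63214004) stood out in BAT. In these 2 windows the capitals mark GGGCGG and CCAAT on either strand.
Col16a1: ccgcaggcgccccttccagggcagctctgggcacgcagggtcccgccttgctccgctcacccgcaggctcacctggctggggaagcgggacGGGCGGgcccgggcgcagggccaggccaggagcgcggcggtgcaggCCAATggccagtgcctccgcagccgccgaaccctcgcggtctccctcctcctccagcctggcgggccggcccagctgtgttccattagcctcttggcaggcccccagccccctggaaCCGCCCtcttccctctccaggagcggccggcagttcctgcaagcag
Col27a1: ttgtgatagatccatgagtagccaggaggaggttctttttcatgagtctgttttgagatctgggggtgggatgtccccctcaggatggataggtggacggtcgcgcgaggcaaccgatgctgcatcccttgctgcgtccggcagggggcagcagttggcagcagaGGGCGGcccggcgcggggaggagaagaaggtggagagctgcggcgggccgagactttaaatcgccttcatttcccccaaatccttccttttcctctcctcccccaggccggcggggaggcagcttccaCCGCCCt
Of the 44 members, 35 had a window. GGGCGG was in 22 of them (62.9%) and in 35.7% of all 32851 windows, CCAAT in 12 (34.3% against 37.4%), TATAAA in 5 (14.3% against 13.6%), the Smad string CAGACA in 8 (22.9% against 21.0%) and the ATF4 string TGATGNAAN in none (3.95% of all windows). All were searched on both strands, and none of the 5 strings contains another. Members were taken once per symbol, whereas the set of all windows was not reduced in this way. Col4a4 and Col4a3 also lie head to head, 71 bases apart, as do Col4a6 and Col4a5, 1308 bases apart. In the coding sequences of the GENCODE transcripts, the longest unbroken run of glycine-led triplets was 216 to 344 in the fibrillar members (median 338) and 39 to 66 in the type IV members, whose helix is broken into 22 to 27 runs of at least 5.

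Each library held 8042591 to 11720458 counts in BAT and in inguinal WAT on chow, and 17572752 to 25680411 in inguinal WAT on HFD, where each mouse had 2 technical replicates. Levels are given as RPKM, reads per kilobase of gene model scaled to the library size, from 1 TMM normalization over all 41 libraries. Ucp1, which defines brown adipocytes, was at 2542 to 5198 RPKM in BAT and at 1.08 RPKM or less in every inguinal library, and the adipocyte gene Adipoq was at 415 RPKM or more in all 41. The knock-in changes a codon, so the level of Mfn2 does not check the labels. Markers of other tissues set 14 libraries apart (more than 10 RPKM of the B cell gene Cd79a, 50 of the muscle gene Ckm or 5 of the epithelial gene Epcam), namely 2 BAT WT, 1 BAT KI, 3 inguinal HFD WT, 3 inguinal HFD KI, 2 chow WT and 3 chow KI. The largest such signal was in chow KI mouse 4, with 3815 RPKM of Ckm. For genotype, diet and tissue, counts of called collagen genes are also given below without these 14 libraries. Counts for the other gene lists were not recomputed in this way.

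Collagen RNA was abundant in inguinal WAT and sparse in BAT. The 44 genes took 0.597% to 1.14% of all counts in chow WT mice (median 0.818%), 0.515% to 0.678% in chow KI (median 0.554%), 0.666% to 1.13% in HFD WT (median 0.936%) and 0.589% to 0.902% in HFD KI (median 0.776%). In BAT the shares were 0.125% to 0.248% in WT (median 0.181%) and 0.106% to 0.190% in KI (median 0.146%). In each tissue and diet the median was lower in KI than in WT and the ranges of the genotypes overlapped. In whole tissue, fewer collagen-making cells and less collagen RNA per cell cannot be told apart.

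A few chains carried nearly all of this RNA. Col4a1 and Col4a2, whose products assemble together into the common type IV trimer, led the order with means of 138 and 119 RPKM over all libraries and held 35.1% of the summed collagen RPKM. They were followed by Col3a1 (87.6 RPKM), the type VI chain Col6a1 (65.5), the multiplexin Col15a1 of the zone beneath basement membranes (57.0), Col1a1 (54.8), Col5a3 (52.0), Col6a2 (35.7), Col1a2 (32.4) and Col18a1 (26.0), the multiplexin from which endostatin is cut. The leading members of the remaining classes were far lower, with Col16a1 at 3.81 and Col14a1 at 1.25 among the FACITs, Col28a1 at 1.75, Col8a1 at 1.09 and Col8a2 at 0.104 among short chain collagens, Col23a1 at 0.953 and Col13a1 at 0.952 among transmembrane ones, Col7a1 at 0.540 and Col26a1 at 0.0334. No collagen gene was without counts, Col19a1 and Col9a1 had under 1 count per mouse, and 5 members (Col19a1, Col25a1, Col2a1, Col9a1 and Col9a2) passed the low-count filter in no comparison. Col2a1 and the Col9 genes are collagens of cartilage. The pooled order is set mostly by inguinal WAT. In BAT, the fibrillar gene Col27a1, at 4.12 RPKM over all libraries, had the rank 6 in WT (median 12.2 RPKM) and 5 in KI (median 10.4).

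**Figure D1:**
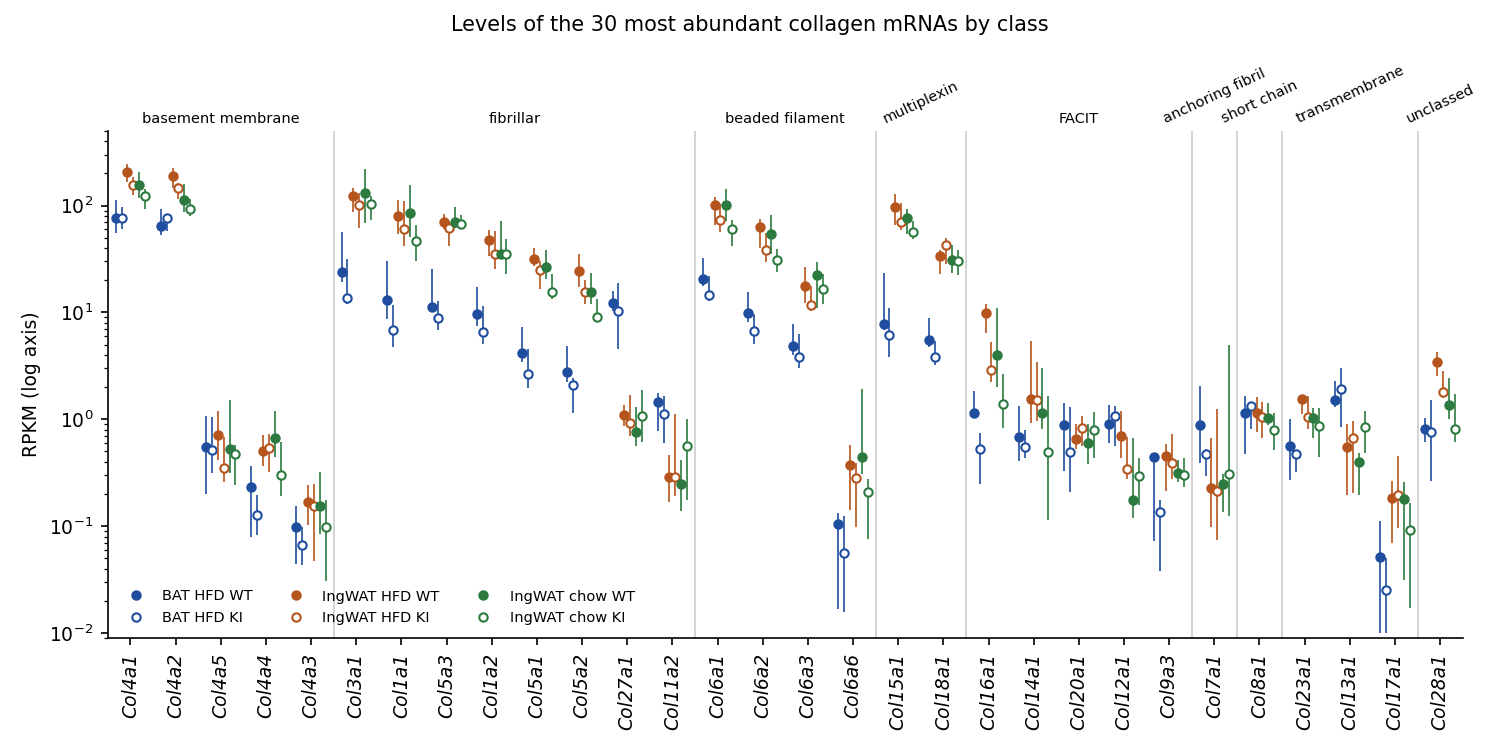
RPKM (log axis) of the 30 collagen mRNAs with the highest mean, ordered by class. Points are group medians (filled for WT, open for KI), and lines run from the lowest to the highest mouse of each of the 6 groups. Values of 0 are drawn just above the bottom of the axis. Col4a1 or Col4a2 has the highest median in every group, and Col27a1 (median 12.2 RPKM in BAT WT and 1.10 in inguinal HFD WT) is higher in BAT.

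Neighbours in the order of levels seldom separated. Over the first 10 steps of each group's order, neighbours overlapped in range in all but 1 case, the step from Col4a1 to Col6a1 in BAT KI (76.4 to 14.7 RPKM at the median). Col4a1 had the highest median in every group except BAT KI, where Col4a2 (77.0 RPKM) and Col4a1 (76.4) did not separate. Over the 41 libraries, the ratio of Col4a1 to Col4a2, chains of 1 trimer, ranged from 0.941 to 1.51. That of Col6a1 to Col6a2 ranged from 1.44 to 2.63, and that of Col5a1 to Col5a2 from 0.964 to 2.03. In inguinal WAT on HFD, Col6a1 to Col6a2 had a median of 1.62 in WT (1.44 to 1.89) and 1.89 in KI (1.83 to 2.17). There Col5a1 to Col5a2 had medians of 1.26 and 1.62. On chow the medians were 1.85 and 1.84 for Col6a1 to Col6a2, and 1.64 and 1.67 for Col5a1 to Col5a2. In BAT, Col4a1 to Col4a2 had medians of 1.20 in WT and 1.03 in KI. These ratios depend on the lengths of the gene models as well as on the counts.

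The ratio of Col1a1 to Col1a2, the pair of chains of type I collagen, had a wider range over the 41 libraries, 0.875 to 2.46. Its median was 1.44 in BAT WT (1.16 to 1.76) and 0.951 in BAT KI (0.875 to 1.50), 1.82 in chow WT (1.43 to 2.46) and 1.30 in chow KI (1.15 to 1.53), and 1.87 in HFD WT (1.42 to 2.31) and 1.69 in HFD KI (1.54 to 1.89). The median was lower in KI in each of the 3 settings and the ranges overlapped in each. No test was run on ratios or shares.

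The makeup of the collagen RNA differed between the tissues. Basement membrane chains held 45.3% to 50.9% of the summed collagen RPKM in BAT WT mice (median 49.1%), against 33.8% to 38.7% in inguinal HFD WT (median 35.5%) and 22.3% to 34.8% in chow WT (median 28.6%). Fibrillar chains held 26.5% to 33.6% in BAT WT (median 29.3%), 33.5% to 36.5% in inguinal HFD WT (median 34.6%) and 34.3% to 47.5% in chow WT (median 40.6%). Type VI chains held a median of 13.2% in BAT WT, 15.9% in inguinal HFD WT and 18.6% in chow WT, and multiplexins 4.90%, 11.3% and 10.9%.

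In BAT the genotypes did not overlap in the basement membrane share. KI mice had 52.6% to 62.8% (median 59.8%), all above the highest WT mouse at 50.9%, and without the 3 BAT libraries set apart the ranges were 45.3% to 50.8% in WT and 52.6% to 62.8% in KI. The summed RPKM of this class was alike, 109 to 207 in WT (median 143) and 119 to 183 in KI (median 155), while the fibrillar sum was 66.0 to 153 in WT (median 82.4) and 43.1 to 85.6 in KI (median 53.5). The fibrillar share was 20.6% to 28.3% in BAT KI (median 21.8%). In inguinal WAT the basement membrane shares of KI mice, 27.9% to 38.8% on HFD (median 35.7%) and 25.2% to 36.4% on chow (median 31.5%), overlapped those of WT mice. The share of every other class overlapped between the genotypes in BAT and in inguinal WAT on each diet. Among summed levels, only that of the FACITs in inguinal WAT on HFD did not overlap (9.55 to 17.2 RPKM in WT, 5.38 to 9.46 in KI).

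**Figure D2:**
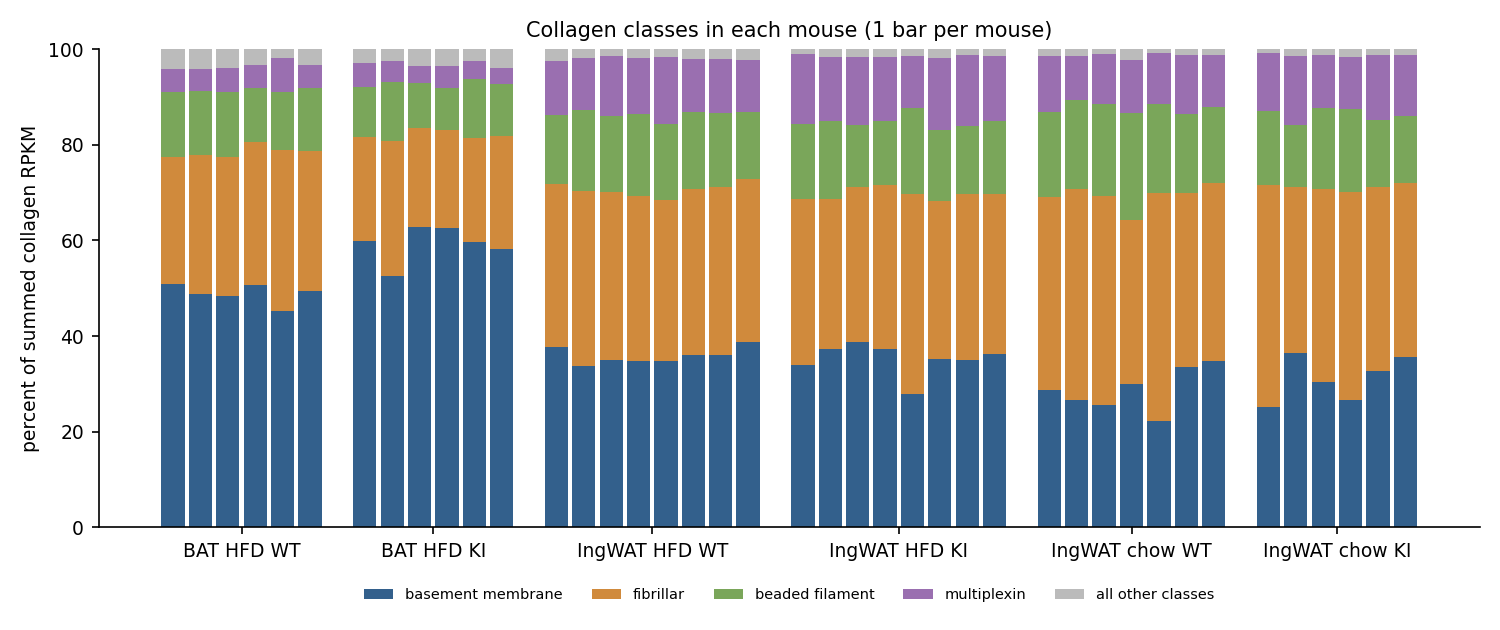
Percent of the summed collagen RPKM (vertical axis) held by each class in every mouse, 1 stacked bar per mouse, grouped by tissue, diet and genotype. The basement membrane part reaches 52.6% to 62.8% in BAT KI mice against 45.3% to 50.9% in BAT WT mice, and lies between 22.3% and 38.8% in inguinal WAT.

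The first comparison asked which collagen mRNAs differed between KI and WT mice within each tissue and diet. The threshold for calling a gene was an adjusted p of 0.01 in edgeR's quasi-likelihood test, with Benjamini-Hochberg adjustment over all genes tested, and log2 differences are given with their SE. In BAT, 1 of 26 tested collagen genes was called lower and none higher, when 0.475% of all 13267 genes tested were lower and 1.36% higher. The median log2 difference was -0.56 over the collagens and -0.013 over all genes, and 21 of the 26 estimates were negative. In inguinal WAT on HFD, 5 of 33 were called lower and none higher, when 5.24% of 16471 genes were lower and 6.21% higher, with a median of -0.31 against 0.0055 and 25 negative estimates. On chow, 2 of 30 were called lower and none higher, when 1.22% of 14629 genes were lower and 2.06% higher, with a median of -0.41 against -0.00011 and again 25 negative estimates.

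Few collagen genes separated the genotypes mouse by mouse. Every KI mouse lay below every WT mouse for 1 member in BAT (Col16a1; 1.05% of all genes tested did so), 1 in inguinal WAT on HFD (Col16a1; 2.43%) and 1 on chow (Col6a6; 1.47%). No member had every KI mouse above every WT mouse, when 2.64%, 2.09% and 2.75% of all genes tested did in BAT, in inguinal WAT on HFD and on chow. Of the 26 members tested in all 3 settings, 15 had a negative estimate in each (57.7%, against 20.5% of the 13034 genes tested in all 3), among them Col1a1, Col1a2, Col3a1, all 3 tested type V chains and Col6a1, Col6a2 and Col6a3. Col13a1 alone was positive in each.

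**Figure D3:**
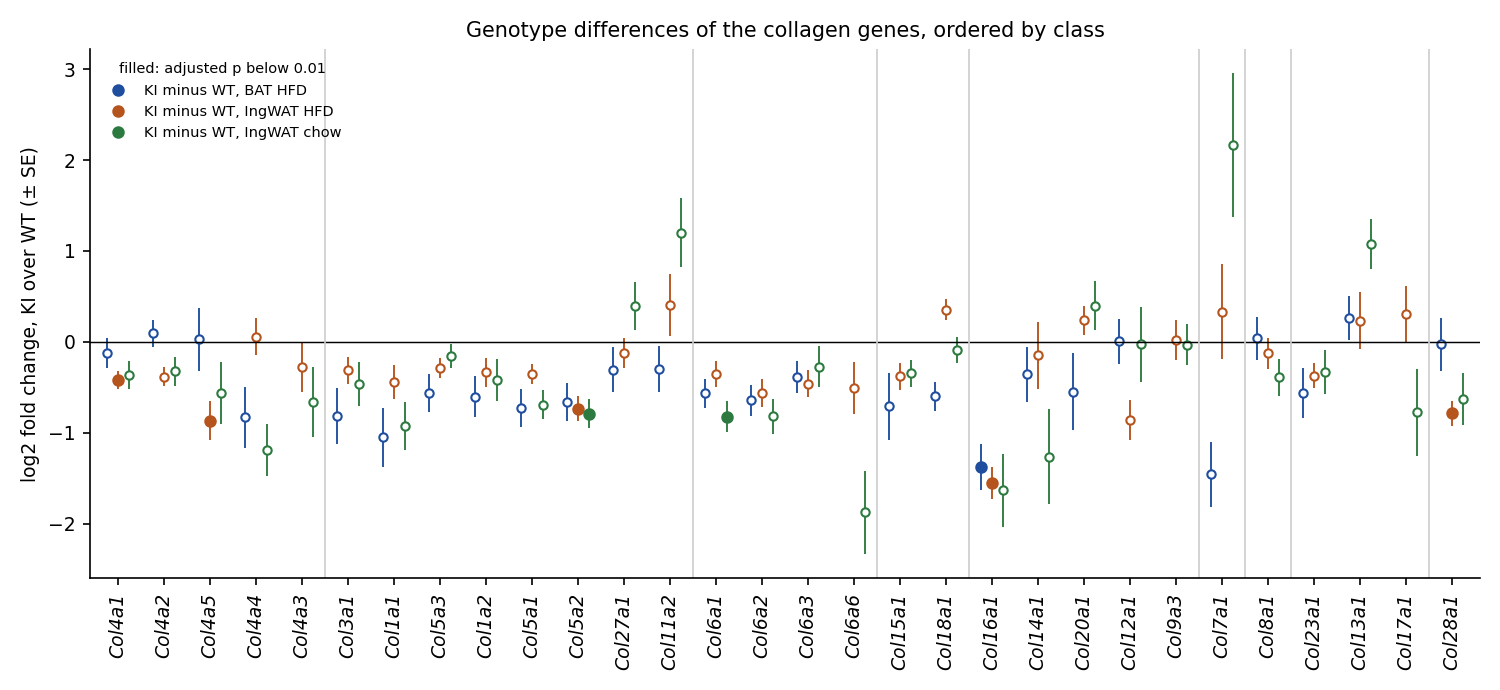
Log2 fold change of KI over WT (points, with SE as lines) for the most abundant collagen genes ordered by class, in BAT on HFD, inguinal WAT on HFD and inguinal WAT on chow; filled points have an adjusted p below 0.01. Most points lie below 0, and Col16a1 lies near -1.5 in each (-1.37, -1.55 and -1.63).

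Col16a1 fell in KI mice in both tissues on HFD. This gene on chromosome 4 (130047840 to 130099283, plus strand, build GRCm38) encodes a FACIT chain found beside fibrils and near basement membranes. In BAT it ranged from 1.04 to 1.82 RPKM in WT mice (median 1.13), against 0.248 to 0.747 in KI mice (median 0.525), and the groups did not overlap. The log2 difference was -1.37 ± 0.25, a fall of 61.4% (adjusted p = 0.0044, n = 6 per genotype). In inguinal WAT on HFD it ranged from 6.39 to 11.9 RPKM in WT (median 9.96), against 2.26 to 5.34 in KI (median 2.87), again without overlap. The difference was -1.55 ± 0.18 (adjusted p = 7.9e-06, n = 8 per genotype). On chow, WT mice had 2.01 to 11.0 RPKM (median 3.98) and KI mice 0.838 to 2.66 (median 1.38), the groups overlapped, and the estimate of -1.63 ± 0.40 was not called (adjusted p = 0.022). In BAT the call rests on 11 to 81 counts per mouse and was lost without the libraries set apart (log2 difference -1.45, adjusted p = 0.017), whereas in inguinal WAT on HFD it was kept (-1.53, adjusted p = 1.9e-04).

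Col5a2 fell in inguinal WAT on both diets. It encodes a type V chain, which joins type I and III fibrils and limits their width, and it lies on chromosome 1 (45374321 to 45503282, minus strand), tail to tail with Col3a1. On HFD it ranged from 17.2 to 35.3 RPKM in WT (median 24.3), against 12.0 to 20.0 in KI (median 15.7), with a small overlap of the groups. The log2 difference was -0.73 ± 0.14 (adjusted p = 8.1e-04). On chow, WT mice had 12.1 to 23.2 RPKM (median 15.4) and KI mice 8.08 to 13.3 (median 9.11), with a difference of -0.79 ± 0.16 (adjusted p = 0.0074, n = 7 WT and 6 KI). The chow call was lost in 12 of 22 alternative fits, among them the fit without the libraries set apart. In BAT the estimate was -0.66 ± 0.20 (adjusted p = 0.061). Its partner chains gave -0.36 (Col5a1, adjusted p = 0.026) and -0.29 (Col5a3, adjusted p = 0.062) in inguinal WAT on HFD, and Col3a1 beside it on the chromosome -0.31 (adjusted p = 0.15).

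Of the 5 type IV genes tested in inguinal WAT on HFD, Col4a1 and Col4a5 were called lower. Col4a1 (chromosome 8, 11198423 to 11312826, minus strand) ranged from 168 to 247 RPKM in WT mice (median 205), against 124 to 185 in KI mice (median 157), and the groups overlapped. Its log2 difference was -0.42 ± 0.10, a fall of 25.1% (adjusted p = 0.0052). Col4a2, transcribed away from it, had 147 to 226 RPKM in WT (median 191) and 117 to 161 in KI (median 147), with -0.38 ± 0.10 just outside the threshold (adjusted p = 0.012). Col4a5, an X-linked chain of specialised basement membranes, ranged from 0.416 to 1.20 RPKM in WT (median 0.713), against 0.257 to 0.686 in KI (median 0.352), with -0.86 ± 0.21 (adjusted p = 0.0064). Neither Col4a1 nor Col4a5 was called without the libraries set apart (-0.43, adjusted p = 0.022, and -0.60, adjusted p = 0.14). In BAT the estimates were -0.12 for Col4a1, 0.09 for Col4a2 and 0.03 for Col4a5, with adjusted p of 0.70 or more.

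Col28a1, a collagen with von Willebrand factor domains that is known from peripheral nerve, was the remaining called gene on HFD. In inguinal WAT it ranged from 2.56 to 4.23 RPKM in WT (median 3.46), against 1.58 to 2.85 in KI (median 1.80), and the groups overlapped. The log2 difference was -0.79 ± 0.14 (adjusted p = 4.0e-04). It was -0.63 ± 0.28 on chow (adjusted p = 0.19) and -0.03 ± 0.30 in BAT (adjusted p = 0.97). None of the 5 Schwann cell markers tested was called in inguinal WAT on HFD, and their median log2 difference was 0.32.

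Col6a1 fell on chow. This type VI chain (chromosome 10, 76708792 to 76726168, minus strand) ranged from 71.4 to 142 RPKM in WT mice (median 101), against 41.7 to 72.6 in KI mice (median 60.7), overlapping narrowly. The log2 difference was -0.82 ± 0.17, a fall of 43.5% (adjusted p = 0.0078). This call was lost in 12 of 22 alternative fits, among them the fit without the libraries set apart. The second chain, Col6a2, had 35.4 to 81.5 RPKM in WT (median 54.7) and 24.0 to 39.3 in KI (median 31.1), with the same estimate of -0.82 ± 0.19 and no call (adjusted p = 0.017), and the third, Col6a3, gave -0.27 ± 0.22 (adjusted p = 0.49). Col6a6, the member whose chow groups did not overlap, had 0.308 to 1.91 RPKM in WT and 0.0758 to 0.278 in KI (-1.88 ± 0.46, adjusted p = 0.020). On HFD the type VI estimates were -0.35, -0.56 and -0.46 for Col6a1, Col6a2 and Col6a3 in inguinal WAT (adjusted p = 0.084, 0.013 and 0.034) and -0.57, -0.64 and -0.39 in BAT (adjusted p = 0.043, 0.032 and 0.19).

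**Figure D4:**
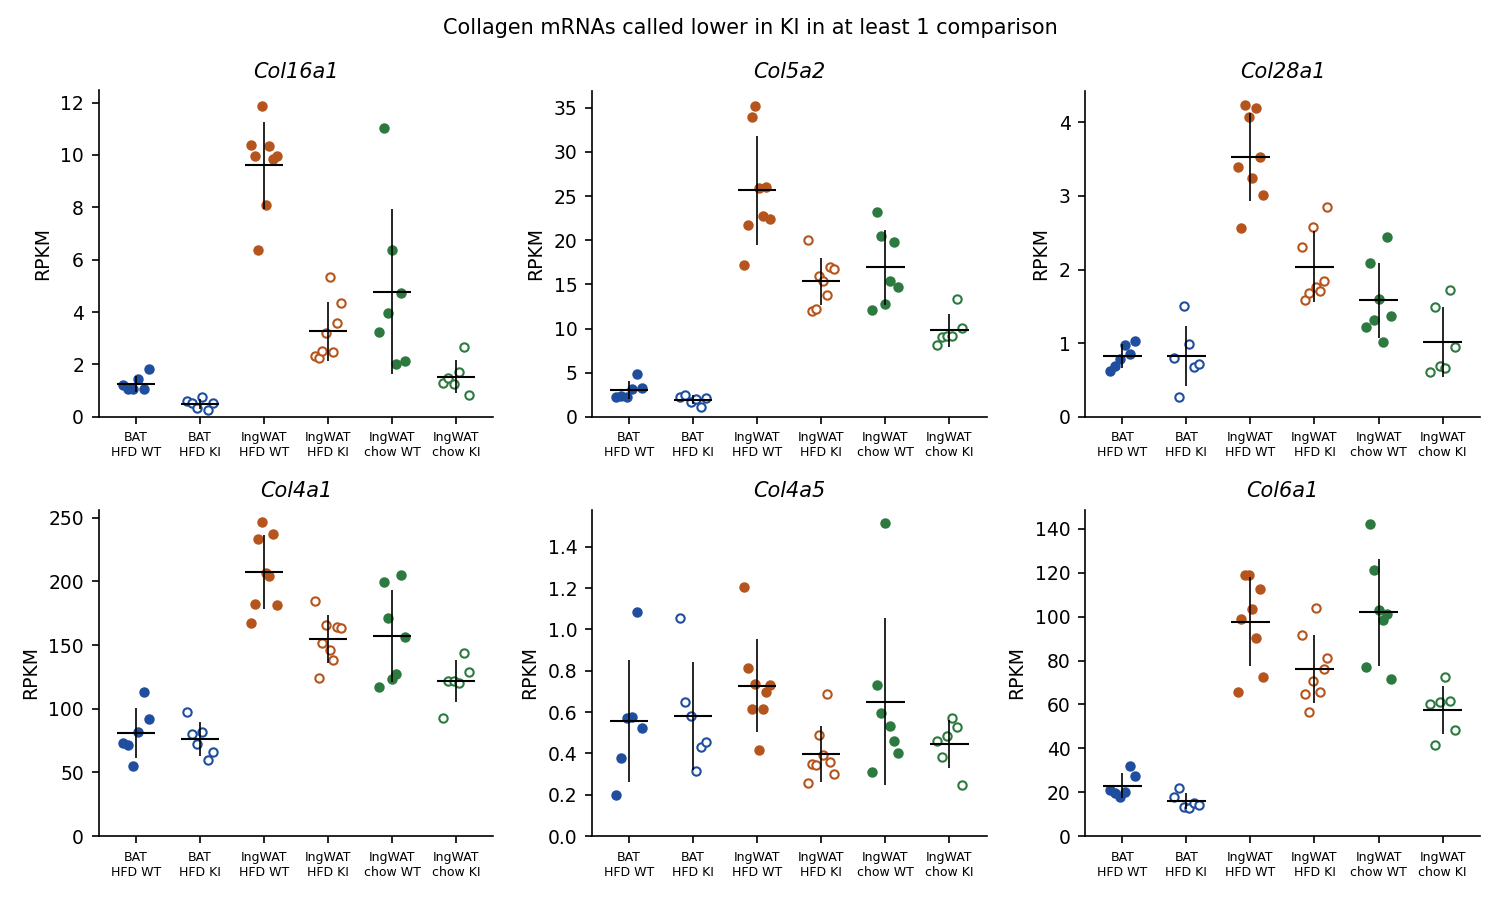
RPKM in every mouse (points; filled WT, open KI) of the 6 collagen genes called lower in KI in at least 1 comparison, with group means (bars) and SD (lines), in BAT on HFD, inguinal WAT on HFD and inguinal WAT on chow; each panel starts at 0. Col16a1 in inguinal WAT on HFD lies between 6.39 and 11.9 in WT and between 2.26 and 5.34 in KI.

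The main fibrillar chains had negative estimates that were not called. Col1a1, the larger contributor to type I collagen, ranged in BAT from 8.63 to 30.6 RPKM in WT (median 13.2), against 4.79 to 11.7 in KI (median 6.90), with -1.05 ± 0.33 (adjusted p = 0.072). The estimates were -0.44 ± 0.18 in inguinal WAT on HFD (adjusted p = 0.097) and -0.92 ± 0.26 on chow (adjusted p = 0.042). Col3a1, which mixes with type I in soft tissue, gave -0.82 ± 0.30, -0.31 ± 0.15 and -0.46 ± 0.25 in BAT, on HFD and on chow (adjusted p = 0.12, 0.15 and 0.27). By class, all 8 fibrillar genes tested in BAT had negative estimates, as did 9 of 10 on HFD and 6 of 8 on chow, with medians of -0.63, -0.30 and -0.44. Basement membrane genes were negative in 2 of 4, 4 of 5 and 5 of 5, with medians of -0.04, -0.38 and -0.56.

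Estimates of the transmembrane and anchoring fibril collagens differed in sign, and none was called. Col13a1, a transmembrane collagen of cell contacts, ranged on chow from 0.197 to 0.486 RPKM in WT (median 0.401), against 0.481 to 1.21 in KI (median 0.843), and its estimate of 1.08 ± 0.27 was not called (adjusted p = 0.023). The other abundant transmembrane gene, Col23a1, gave -0.56, -0.37 and -0.33 in BAT, on HFD and on chow (adjusted p = 0.23, 0.062 and 0.43). Col7a1, which anchors epithelium to the stroma, gave -1.46 ± 0.36 in BAT (adjusted p = 0.025), 0.33 ± 0.52 on HFD (adjusted p = 0.72) and 2.17 ± 0.79 on chow (adjusted p = 0.11). The chow estimate rests on KI mouse 4, the library with the most Ckm, at 4.95 RPKM against 0.415 in the next KI mouse. In BAT, WT mice 1 and 2, with 170 and 190 RPKM of Ckm, had 2.03 and 1.92 RPKM of Col7a1. The next WT mouse had 0.982. The FACIT Col12a1 was close to the threshold on HFD, with 0.437 to 1.21 RPKM in WT and 0.274 to 0.677 in KI (-0.86 ± 0.22, adjusted p = 0.010).

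The count of calls depended on single libraries and on the tool in each of the 3 settings. In inguinal WAT on HFD, Col16a1, Col28a1 and Col5a2 stayed called in all 25 alternatives run, including left-out mice. Col4a1 lost its call in 10 of these 25 and Col4a5 in 12. Without the libraries set apart, 0 collagen genes were called in BAT, 4 lower in inguinal WAT on HFD (Col16a1, Col28a1, Col5a2 and Col1a1) and, on chow, 1 higher (Col13a1) with neither of the 2 genes of the full set. Leaving out 1 mouse at a time gave 0 to 2 calls in BAT, 3 to 7 on HFD and 0 to 3 on chow. The BAT count was 0 without WT mouse 4, WT mouse 6, KI mouse 2 or KI mouse 3, and 2 without WT mouse 5. The chow count was 0 without WT mouse 2, 3, 5 or 6 or KI mouse 1, 2, 3 or 6, and 1 without WT mouse 4, WT mouse 7 or KI mouse 4, and the HFD count was 3 without WT mouse 4. DESeq2 called 3 lower in BAT (Col16a1, Col1a1 and Col7a1), 9 lower on HFD, and 8 lower with 1 higher on chow.

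Most markers of fibroblasts and adipocyte progenitors had negative estimates in KI mice, and a minority was called lower. Of the 10 markers tested, 2 were lower in BAT (Pi16 at -1.62 and Dpt at -1.37, a median of -0.59), 2 in inguinal WAT on HFD (Lum at -1.39 and Dpt at -0.75, a median of -0.25) and 1 on chow (Dpt at -1.28, a median of -0.34). Over all genes tested, 0.475% were lower in BAT, 5.24% in inguinal WAT on HFD and 1.22% on chow. The highest estimates of these markers, none of them called, were Cd34 at 0.54 in BAT, Dpp4 at 0.56 on HFD and Pdgfra at 0.09 on chow. Dpp4 was the only marker with a positive estimate on HFD. Their summed level was 276 to 407 RPKM in BAT WT and 230 to 338 in BAT KI, 530 to 891 in HFD WT and 401 to 565 in HFD KI, and 625 to 1277 in chow WT and 502 to 685 in chow KI. None of the 10 markers was at a median of 0 in any group. Endothelial markers had medians of -0.24, -0.14 and -0.35 in the same order, with none of 8 called, and macrophage markers -0.51, -0.42 and -0.61, with only Itgax called, on HFD (-1.44). No mural marker was called, and their summed median was 339 RPKM in WT and 267 in KI in BAT, 386 and 414 on HFD, and 446 and 337 on chow. Adipocyte markers were called on HFD only, with Lipe (0.54) and Pnpla2 (0.46) higher and Adipoq (-0.85) and Lep (-0.62) lower. The part of these cell types in the collagen differences was not tested.

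Genes that modify, cut, cross-link and bind collagen were called in both directions in inguinal WAT on HFD, and lower only in the other two settings. Of 44 tested in BAT, 1 was lower and none higher, of 53 in inguinal WAT on HFD 8 were lower and 4 higher, and of 51 on chow 2 were lower and none higher, with median log2 differences of -0.21, -0.11 and -0.13. Over all genes tested, in the same order, 0.475%, 5.24% and 1.22% were lower and 1.36%, 6.21% and 2.06% higher. Lox, the lysyl oxidase that starts the cross-linking of fibrils, ranged in inguinal WAT on HFD from 37.4 to 53.8 RPKM in WT (median 42.7), against 16.5 to 29.8 in KI (median 24.6), without overlap (-0.89 ± 0.12, adjusted p = 2.3e-05), and in BAT from 3.60 to 8.78 in WT against 2.33 to 4.04 in KI (-1.04 ± 0.20, adjusted p = 0.0065). Pcolce2, an enhancer of the protease that trims fibrillar procollagen, ranged on HFD from 8.71 to 16.9 RPKM in WT against 2.64 to 7.29 in KI (-1.33 ± 0.17, adjusted p = 2.6e-05). On chow it had 3.20 to 15.3 RPKM in WT and 1.08 to 3.30 in KI (-2.11 ± 0.36, adjusted p = 0.0029).

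Also lower on HFD were Tll1, a procollagen protease (-0.90), the collagen-degrading cathepsin Ctsk (-0.85) and 4 genes with smaller falls, and on chow the chaperone Fkbp7 (-0.54). The 4 genes that rose on HFD were Ddr1 and Ddr2, receptor kinases that bind collagen (0.94 and 0.53), Pcolce, the relative of Pcolce2 (0.73), and P4ha2, a prolyl hydroxylase subunit (0.68). Partners of type IV collagen in the basement membrane were lower for 1 of 14 on chow (Nid2, a nidogen, -1.24), higher for 2 of 14 on HFD (the laminin chains Lama3 at 0.81 and Lamb2 at 0.47) and called for none of 12 in BAT. Over all genes tested, 1.22% were lower on chow and 6.21% higher on HFD.

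The second comparison asked whether the KI effect differed between tissues. The difference of the log2 effects, BAT minus inguinal WAT on HFD, was called for 1 of 36 collagen genes, Col18a1, which was lower, when 1.24% of 17214 genes were lower and 1.58% higher. In BAT it ranged from 4.71 to 8.88 RPKM in WT (median 5.56), against 3.20 to 5.39 in KI (median 3.85), and in inguinal WAT on HFD from 23.1 to 38.7 in WT (median 33.6), against 28.3 to 49.7 in KI (median 42.5). KI mice lay on the low side in BAT and on the high side in inguinal WAT, with overlap in both. The effects were -0.60 ± 0.16 in BAT and 0.35 ± 0.11 in inguinal WAT (adjusted p = 0.031 in each, so neither was called), and their difference was -0.92 ± 0.20 (adjusted p = 0.0040; 0.0084 without the libraries set apart). On chow the effect was -0.09 ± 0.14 (adjusted p = 0.76). Among the collagen-handling genes the same difference was called for Pcolce (-1.20) and Ddr2 (-0.71), both lower.

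The third comparison asked whether HFD changed collagen mRNAs in inguinal WAT. The chow and HFD libraries came in separate count tables with no batch label, so diet and library batch cannot be told apart. In WT mice 5 of 38 collagen genes were called higher on HFD and 1 lower, when 11.7% of 17400 genes were higher and 16.6% lower, with a median log2 difference of 0.19 against 0.01 over all genes. In KI mice 6 of 38 were higher and none lower, when 14.1% were higher and 16.6% lower, with a median of 0.38 against 0.01. Without the libraries set apart, 3 were higher in WT (Col28a1, Col4a2 and Col5a2) and 0 were called in KI. Endothelial markers were higher on HFD for 4 of 8 in WT and 6 of 8 in KI, with medians of 0.43 and 0.48, and their part in the result was not tested.

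Col28a1, Col16a1, Col4a2 and Col5a2 were called higher in both genotypes. Col28a1 ranged from 1.02 to 2.45 RPKM in chow WT (median 1.37), below every HFD WT mouse, and differed by 1.13 ± 0.21 in WT and 1.00 ± 0.22 in KI (adjusted p = 6.8e-05 and 6.0e-04). Col16a1 differed by 0.98 ± 0.29 and 1.08 ± 0.31 (adjusted p = 0.0074 and 0.0067), and Col5a2 by 0.58 ± 0.15 and 0.65 ± 0.16 (adjusted p = 0.0031 and 0.0015). Col4a2 had 87.5 to 160 RPKM in chow WT (median 114) and 79.3 to 116 in chow KI (median 92.7), and differed by 0.63 ± 0.13 and 0.59 ± 0.14 (adjusted p = 2.5e-04 and 8.0e-04).

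Other diet calls were made in 1 genotype, and their difference between genotypes was not called. Col12a1, a FACIT of dense connective tissue, was higher in WT (1.19 ± 0.32, adjusted p = 0.0039), and Col5a1 (0.59 ± 0.14, adjusted p = 0.0011) and Col18a1 (0.49 ± 0.14, adjusted p = 0.0046) were higher in KI. Col8a2 was lower in WT (-2.66 ± 0.77, adjusted p = 0.0065), a call that rests on chow WT mouse 4, with 1.56 RPKM against 0.137 in the next mouse and 12.9 RPKM of Epcam, and was lost without it. The difference of the KI effect, HFD minus chow, was called for none of 38 collagen genes by edgeR and none by DESeq2, when 0.264% of 17400 genes were called higher and 0.58% lower. An unadjusted p below 0.05 was found for 8 of the 38 (21.1%) and for 17.1% of all genes. The count of calls was also 0 without the libraries set apart. The estimates were 0.10 ± 0.42 for Col16a1 and 0.08 ± 0.22 for Col5a2.

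The fourth comparison was between BAT and inguinal WAT on HFD. Collagens were mostly lower in BAT: 22 of 36 tested were lower and 4 higher in WT mice, when 29% of 17214 genes were lower and 26.9% higher, and 23 were lower and 4 higher in KI mice, when 30.7% were lower and 28.4% higher. The median log2 difference of the collagens was -1.58 in both genotypes, against -0.09 and -0.12 over all genes. The tissues came in separate count tables, so tissue and library batch cannot be told apart. Without the libraries set apart 20 and 22 were lower and 4 and 4 higher.

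Fibrillar chains and multiplexins had larger differences than the abundant type IV chains; differences between classes were not tested. The log2 difference, BAT minus inguinal WAT, was -3.08 ± 0.19 in WT and -2.99 ± 0.19 in KI for Col5a2, -3.20 ± 0.29 and -3.51 ± 0.30 for Col15a1, and -2.46 ± 0.15 and -3.38 ± 0.16 for Col18a1 (adjusted p = 1.9e-10 or less). For Col4a1 and Col4a2 it was -1.36 ± 0.14 and -1.46 ± 0.13 in WT and -1.03 ± 0.13 and -0.96 ± 0.13 in KI (adjusted p = 9.0e-08 or less). By class, the median was -2.25 over 10 fibrillar, -2.07 over 4 type VI and -1.02 over 6 type IV genes in WT, and -2.41, -2.19 and -1.09 in KI. Of 10 fibroblast markers, 8 were lower in BAT and 1 higher in WT, and 7 lower and 1 higher in KI, with medians of -1.50 and -1.57. Of 8 macrophage markers, 8 and 7 were lower, while endothelial markers had medians of 0.11 and 0.03. Their part in the collagen differences was not tested.

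A small set ran the other way. Col27a1, a fibrillar collagen known from cartilage, ranged from 10.2 to 15.9 RPKM in BAT WT (median 12.2), against 4.52 to 18.8 in BAT KI (median 10.4), above every inguinal library, where the range was 0.560 to 1.88. It was higher in BAT by 3.51 ± 0.22 in WT (11.4 times, adjusted p = 5.2e-14) and 3.37 ± 0.22 in KI (10.3 times, adjusted p = 9.9e-14). Of the 5 cartilage markers, Matn1 and Hapln1 were at a median of 0 in both BAT groups and Acan at 0.0295 RPKM in WT and 0.0108 in KI. Sox9 was higher in BAT, by 2.02 ± 0.36 in WT and 1.80 ± 0.34 in KI (medians of 0.312 and 0.439 RPKM in BAT), and Comp was lower in WT (-2.22 ± 0.46) and not called in KI (-1.13 ± 0.47, adjusted p = 0.035). The part of these markers in the Col27a1 difference was not tested. The transmembrane collagen Col13a1 was higher by 1.48 ± 0.31 and 1.54 ± 0.30, and the fibrillar Col11a2 by 2.17 ± 0.33 and 1.51 ± 0.32. Col7a1 was called higher in WT only (2.13 ± 0.49 against 0.39 ± 0.50 in KI) and Col12a1 in KI only (1.31 ± 0.24 against 0.40 ± 0.24 in WT), and neither difference between genotypes was called (adjusted p = 0.14 and 0.11). The highest Col7a1 levels of BAT WT were those of mice 1 and 2, both set apart for Ckm, whose part in this call was not tested.

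**Figure D5:**
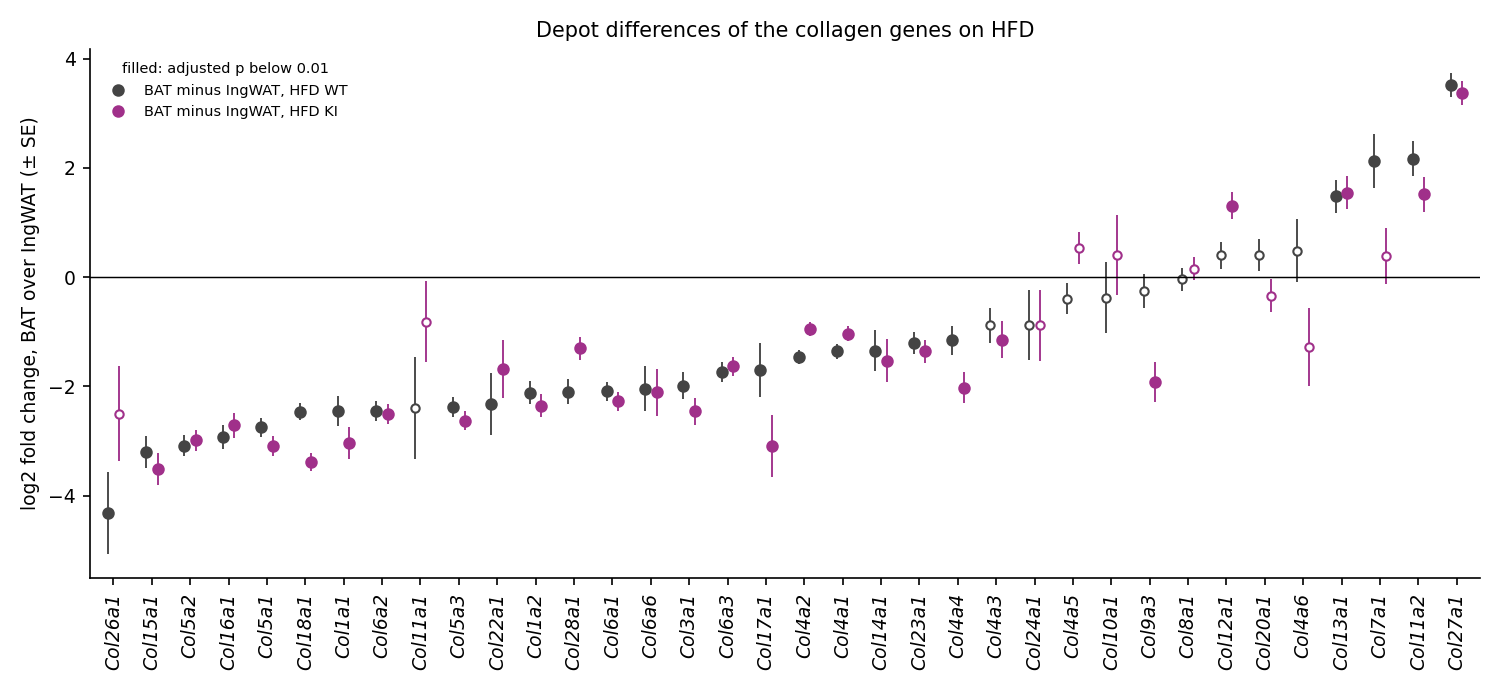
Log2 fold change of BAT over inguinal WAT on HFD (points, with SE as lines) for all 36 collagen genes tested, in WT and KI mice, ordered by the WT estimate; filled points have an adjusted p below 0.01. Col27a1 stands at 3.51 and 3.37, and the leading fibrillar, type VI and type IV genes lie below 0.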

How the data were processed

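PolyA RNA of 41 adipose tissue samples was sequenced as paired-end TruSeq libraries. The authors deposited 3 tables of raw counts per gene, 1 each for BAT, inguinal WAT on HFD and inguinal WAT on chow. The submitters' processing notes name cutadapt, STAR, SAMtools, featureCounts and build GRCm38, and tool versions and the strand setting of counting are not given in the sources used here. In the HFD inguinal table the technical replicates of a mouse share 1 column. Counts of 52853 genes were kept (99 symbols were listed more than once with identical counts and were taken once). Columns of per-sample values not used numbered 0.

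Genes passing filterByExpr were tested with edgeR 4.0.16 (limma 3.58.1, R 4.3.3; TMM factors, robust quasi-likelihood fits) on the groups of each comparison, with Benjamini-Hochberg adjustment over all genes and a threshold of 0.01, after tests on simulated data. DESeq2 1.42.0 was an alternative. Mice are the replicates, and nothing in the labels gives litters or library batches. RPKM used the gene model lengths of the tables. Alternatives were other scaling, low-count filters, thresholds, left-out mice, 1 fit of all 6 groups, the mouse number as a block and, chosen after seeing the data, leaving out libraries with markers of other tissues.

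Members and gene lists were chosen with earlier results of these data known. Members named are those called in a genotype or interaction comparison, the 2 most abundant of each class and those with under 1 count per mouse. Of the other gene lists, called genes are named, at most the 4 with the largest change in each direction. All other members named were chosen after their values were seen.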

Additional observations from a re-analysis of the deposited data

Results flagged for a closer look

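A gap test at Dixon's 95% critical values was run on 120 groups of values of the named collagen genes, and 14 held a mouse far from the rest, when chance alone sets about 1 in 20 groups apart (6 of 120).

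In BAT WT mice, mouse 5 had the highest level of several collagens. Col15a1 was at 23.6 RPKM there against 11.0 in the next mouse, Col5a2 at 4.88 against 3.22, Col8a2 at 0.156, and Col26a1 at 0.0171. Mouse 6 of that group had 2.31 RPKM of Col13a1 against 1.65. In BAT KI mice, Col26a1 was at 0.0137 RPKM in mouse 4. Both Col26a1 values are single counts in groups otherwise at 0.

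In inguinal WAT on HFD, Col14a1 was at 5.40 RPKM in WT mouse 7 against 1.78 in the next mouse, and Col7a1 at 0.668 in WT mouse 5 against 0.320. In KI mouse 5, with 121 RPKM of Ckm, Col1a1 was at 109 RPKM against 70.8 and Col8a2 at 0.314. Col7a1 was at 1.26 RPKM in KI mouse 3, with 177 RPKM of Ckm, against 0.274. On chow, WT mouse 4, with 22.6 RPKM of Cd79a and 12.9 of Epcam, had 1.51 RPKM of Col4a5 against 0.732 and 1.56 of Col8a2 against 0.137. Col7a1 was at 4.95 RPKM in KI mouse 4, with 3815 RPKM of Ckm, against 0.415. The part of the other tissues in these values was not tested.

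The KI effect on Col18a1 differed between BAT and inguinal WAT by -0.92 on the log2 scale in a test of the difference itself. The value lay between -1.02 and -0.78 in the 34 alternatives run, and it was called in each.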

How the results depend on the processing

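Counts of called collagen genes kept within 1.5 times the reported count in 48 of 63 recomputations other than those leaving out 1 mouse, and none of the genes followed through the alternatives (Col16a1, Col5a2, Col6a1, Col28a1, Col4a1 and Col4a5 for genotype, Col18a1 for the difference between tissues) reversed its direction. In BAT (1 reported) DESeq2 gave 3, 1 fit of all 6 groups 2 (Col5a1 and Col9a3, without Col16a1), a threshold of 0.05 gave 6, and leaving out the libraries with markers of other tissues 0. In inguinal WAT on HFD (5) these gave 9, 3 and 11 for the first 3 settings. On chow (2) they gave 9, 7, 9 and 1. For the diet comparison, leaving out those libraries gave 3 in WT (6 reported) and 0 in KI (6), in a fit with fewer samples. The cause of this change and of the others was not tested.

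With the mouse number as a replicate block, 2 collagen genes were called in BAT (Col16a1 and Col7a1), 4 in inguinal WAT on HFD (3 lower, and Col18a1 higher) and 0 on chow. Same-numbered mice correlated at -0.08 to 0.44 in BAT, -0.25 to 0.71 on HFD and -0.29 to 0.18 on chow. The highest value was that of mouse 2 on HFD, whose WT and KI libraries both held Cd79a (76.8 and 140 RPKM). Whether same-numbered mice share a litter or a batch is not labelled.

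Leaving out 1 mouse at a time gave 0 to 2 called genes in BAT, 3 to 7 on HFD and 0 to 3 on chow for genotype, 3 to 7 and 4 to 7 for diet in WT and KI (3 without chow WT mouse 3 or HFD WT mouse 4), 0 to 1 for the difference of the KI effect between diets (1, Col4a4, without chow KI mouse 5), 25 to 27 and 25 to 28 for tissue in WT and KI, and 1 to 2 for its difference between tissues (2 without BAT WT mouse 5). Without a low-count filter the median over all genes of the tissue difference was -0.30 in WT and -0.36 in KI. Depth limits the low members most, since Col16a1 had 11 to 81 counts per mouse in BAT.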
